A study of Mus musculus with 6 samples.

Results

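Galectins were measured in the livers of obese NZO and control BKS mice. Members were chosen by gene symbol, with their NZO and BKS log2 values already known: all probe sets whose array symbol is Lgals1, Lgals3, Lgals4, Lgals8, Lgals9 or Lgals3bp. This gave 8 probe sets of 6 genes among the 45101 probe sets of the array. Lgals1 and Lgals8 had 2 probe sets each and the other 4 genes 1 each. The first strain was New Zealand Obese (NZO), which becomes obese and diabetic on ordinary chow, with 3 arrays. The comparison strain was C57BL/KS (BKS), also with 3 arrays. All 6 livers came from 18-week-old male mice on chow, and the labels name no other treatment and no engineered allele. Titles of the BKS samples carry wt, for wild type, and those of the NZO samples do not. The submitters' design text calls the mice littermates, although mice of different inbred strains do not share a litter. Both strains are inbred lines that differ across their genomes. Values are log2 RMA expression, a scale on which array medians lay between 5.08 and 5.22. A difference of 1 on it is a doubling of signal. Signals of different probe sets depend on their probes, so a level is compared between strains within a probe set, within the gap of 2 probe sets of a gene, or within the sum over a list.

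Galectins are small lectins that bind galactose-containing sugars, mainly N-acetyllactosamine on branched N-glycans. They lack a signal peptide, yet act outside the cell by cross-linking glycoproteins into lattices and inside it on damaged vesicles and in splicing and signalling complexes. Galectin-1 is a prototype galectin that pairs into a dimer, galectin-3 is the chimera type with a single lectin domain on a long flexible tail, and galectins 4, 8 and 9 carry a pair of different lectin domains on 1 chain. In the liver they are known mostly from macrophages, sinusoidal endothelium, stellate cells and injured tissue, with galectin-9 abundant in Kupffer cells. The whole tissue was measured, so more cells of a type and more RNA per cell cannot be told apart.

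The series as a whole sets some bounds on these values. Hepatocyte markers were bright, with means over the arrays of 12.07 to 14.73 for the 9 measured genes. The spiked-in hybridization controls averaged 7.88 in NZO replicate 1, 8.90 in BKS replicate 1 and 9.78 to 11.2 on the other 4 arrays. These replicates 1 are the arrays titled number 1 in both strains, and no label says that they form a batch. Beta-actin 3' minus 5' signal, a measure of transcript truncation, was 1.29 to 1.39 in NZO and 1.72 to 2.33 in BKS, and for Gapdh -0.04 to 0.14 in NZO and 0.45 to 0.98 in BKS, so both moved with strain. The 18S rRNA signal was 4.64 to 5.52 in NZO, and 4.51, 10.5 and 7.91 in BKS replicates 1 to 3, so it was high on the BKS arrays of the comparison of replicates 2 and 3. The part of these signals in the strain differences was not tested.

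Lgals1 had the largest strain difference of the 6 genes. Galectin-1 is made by stromal, endothelial and activated immune cells and dampens T cell responses. Probe set 1455439_a_at read 8.88, 10.28 and 9.37 in NZO replicates 1 to 3, against 7.001, 6.96 and 6.96 in BKS replicates 1 to 3. Probe set 1419573_a_at read 8.91, 9.64 and 9.08 in NZO, against 7.06, 6.53 and 6.52 in BKS. On both, every NZO array lay above every BKS array by 1.85 units or more.

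The strain difference of Lgals1 was 2.53 with a standard error of 0.33 on 1455439_a_at, a 5.79-fold higher signal in NZO (9.51 ± 0.71 in NZO and 6.98 ± 0.02 in BKS, SD, n = 3 each). On 1419573_a_at it was 2.51 with a standard error of 0.24, or 5.69-fold (9.21 ± 0.38 in NZO and 6.70 ± 0.31 in BKS, SD, n = 3 each). These differences ranked 34 and 36 from the top of 45037 probe sets ordered by NZO minus BKS. The 2 probe sets thus gave almost the same value. The signal of 1455439_a_at minus that of 1419573_a_at averaged 0.30 ± 0.33 in NZO and 0.27 ± 0.29 in BKS (SD, n = 3 each).

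In the limma fit over all probe sets, 2 of the 8 member probe sets passed at an adjusted p below 0.05, both of Lgals1 and both higher in NZO. Over all 45037 probe sets 0.424% passed in either direction and 0.191% as higher in NZO. The genes were chosen with this contrast in view, so their count is a description and nothing is read from it, and no p-value is given for a member. None of the other 6 probe sets passed. Of them, 1 had an unadjusted p under 0.05, as did 4532 of all 45037 probe sets. The median difference of the 8 was 0.40 and that of the 6 without Lgals1 was 0.26, against 0.00 over all probe sets. All 8 had a mean of at least 6, and the median over the 16482 probe sets of that level was -0.14.

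**Figure D1:**
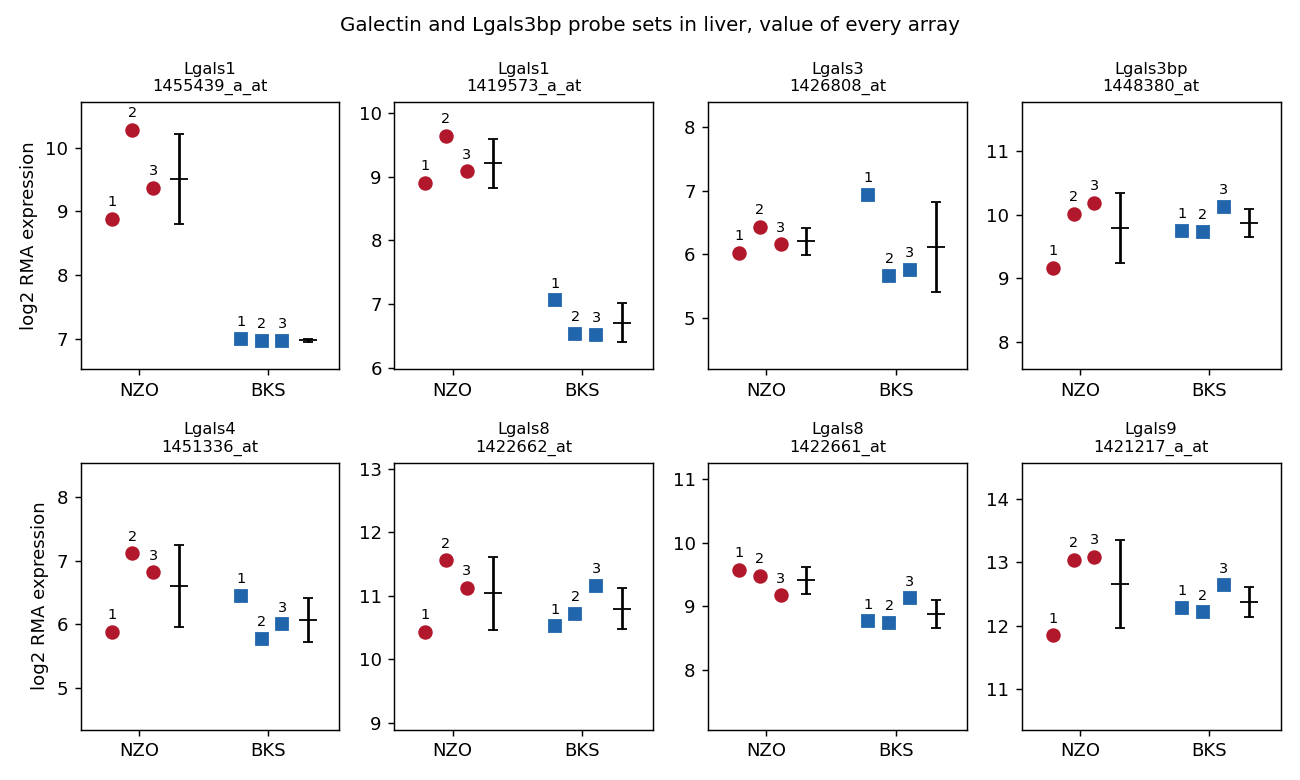
Log2 RMA expression (vertical axis, the same span of 4.2 units in each panel) of the 8 member probe sets. Red circles are NZO arrays, blue squares are BKS arrays, digits are replicate numbers, and the black mark with its bar is the mean ± SD of the 3 arrays. The NZO arrays lie clear of the BKS arrays for both Lgals1 probe sets (8.88 to 10.28 against 6.96 to 7.001 on 1455439_a_at), narrowly so for Lgals8 1422661_at, and the strains overlap in the other 5 panels.

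The Lgals1 difference was seen in both sets of arrays. Between the replicate 1 arrays alone it was 1.88 on 1455439_a_at and 1.85 on 1419573_a_at, a single array per strain with no test. Among replicates 2 and 3 of each strain it was 2.86 and 2.84, and both probe sets passed. Leaving out 1 array at a time kept the difference between 2.15 and 2.85 on 1455439_a_at and between 2.29 and 2.69 on 1419573_a_at. The call depended more on the arrays than the value did: neither probe set passed without BKS replicate 2, BKS replicate 3 or NZO replicate 3, and only 1419573_a_at passed without BKS replicate 1. Both passed without NZO replicate 1 or NZO replicate 2.

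**Figure D2:**
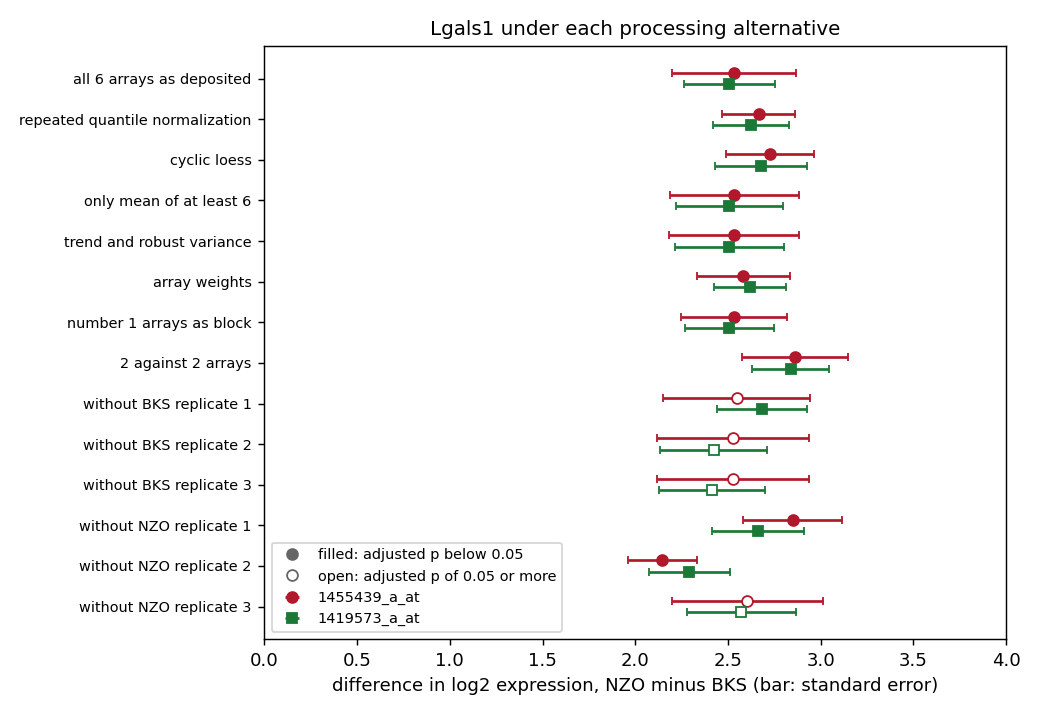
Difference in log2 expression of Lgals1, NZO minus BKS (horizontal axis), for each processing alternative (rows), with bars for the standard error. Red circles are 1455439_a_at and green squares are 1419573_a_at, filled where the adjusted p was below 0.05. Values span 2.15 to 2.86, while the filled symbols give way to open ones in 4 of the 6 rows that leave out an array for 1455439_a_at and in 3 of them for 1419573_a_at.

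Lgals3, the macrophage galectin once called Mac-2, showed no such separation. Its probe set read 6.03, 6.43 and 6.16 in NZO and 6.94, 5.66 and 5.76 in BKS. The highest and the lowest value of the 6 arrays both came from BKS, and the NZO values lay between them. The difference was 0.09 with a standard error of 0.34. It was -0.91 between the replicate 1 arrays and 0.59 among replicates 2 and 3, and its sign changed in 3 of the 6 fits that left out an array. With repeated quantile normalization it was -0.0012. BKS replicate 1 lay 1.23 above the mean of the other 2 BKS arrays, the widest such gap among the members in that strain.

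Lgals4, a galectin of the digestive tract lining that stabilises lipid rafts, read 5.88, 7.12 and 6.82 in NZO and 6.45, 5.77 and 5.999 in BKS. NZO replicates 2 and 3 lay above all BKS arrays, and NZO replicate 1 lay below 2 of them. The difference was 0.53 with a standard error of 0.34 over the 6 arrays. It was -0.57 between the replicate 1 arrays and 1.08 among replicates 2 and 3, where it passed together with Lgals1 and 2.65% of all probe sets passed. Markers of pancreas and gut epithelium did not separate the strains, with a median difference of 0.04 and a summed level of 10.9 to 11.8 in NZO and 10.4 to 11.4 in BKS, and none of the 6 measured genes passed or had an unadjusted p under 0.05.

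Lgals8 encodes the galectin that recognises sugars exposed on ruptured endosomes and calls in autophagy receptors. Its 2 probe sets differed from each other in pattern. Probe set 1422661_at read 9.58, 9.47 and 9.17 in NZO and 8.76, 8.75 and 9.13 in BKS, with NZO replicate 3 just above BKS replicate 3 and no overlap. Its difference was 0.53 with a standard error of 0.17. Probe set 1422662_at read 10.43, 11.56 and 11.13 in NZO and 10.52, 10.72 and 11.16 in BKS, with a difference of 0.24 and a standard error of 0.31. It ran from -0.02 without NZO replicate 2 to 0.55 without NZO replicate 1. The signal of 1422662_at minus that of 1422661_at was 1.63 ± 0.68 in NZO and 1.92 ± 0.14 in BKS (SD, n = 3 each). With the values quantile-normalized once more, 1422661_at moved to 0.80 and 1422662_at to 0.54, and with cyclic loess they moved to 0.78 and 0.56. In all, 3 of the 8 member probe sets did not overlap between strains, as did 15.3% of all probe sets. All 3 were higher in NZO, as were 6.83% of all probe sets that way, and nothing is read from this count either.

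Lgals9, a ligand of the T cell surface protein Tim-3, read 11.85, 13.03 and 13.08 in NZO and 12.28, 12.21 and 12.64 in BKS. NZO replicates 2 and 3 were the highest of the 6 arrays and NZO replicate 1 the lowest. The difference was 0.28 with a standard error of 0.34, with -0.43 between the replicate 1 arrays and 0.63 among replicates 2 and 3. It was 0.57 with repeated quantile normalization and 0.64 with cyclic loess, and ran from 0.07 without NZO replicate 3 to 0.68 without NZO replicate 1. Lgals3bp encodes a secreted, heavily glycosylated scavenger receptor-like protein that galectins 1 and 3 bind. It read 9.16, 10.02 and 10.19 in NZO and 9.75, 9.73 and 10.13 in BKS. The strains overlapped, and the difference was -0.08 with a standard error of 0.29, the lowest of the 8. Leaving out 1 array moved it between -0.28 and 0.24, and it was 0.17 with repeated quantile normalization and 0.20 with cyclic loess, so its sign depends on scaling.

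NZO replicate 1 was often apart from its strain. It was the lowest of the 3 NZO arrays on 7 of the 8 member probe sets, as it was on 73.0% of all 16482 probe sets with a mean of at least 6. On Lgals9 it lay 1.21 below the mean of the other NZO arrays, on Lgals4 1.09 below and on Lgals3bp 0.94 below. On both Lgals1 probe sets it was the lowest NZO array as well, yet still 1.85 or more above every BKS array. BKS replicate 1 was the lowest BKS array on 1 of the 8, against 60.9% of the 16482 probe sets. It was the highest on 4 of the 8, against 24.1%. Among replicates 2 and 3 all 8 member differences were positive, from 0.17 for Lgals3bp to 2.86 for Lgals1. Between the replicate 1 arrays 5 were negative and 3 positive. Shares of these signs over all probe sets were not computed, so nothing is read from these counts. Over the 16482 probe sets, NZO replicate 1 minus the mean of the other NZO arrays had a median of -0.51. For BKS replicate 1 and the other BKS arrays it was -0.23.

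**Figure D3:**
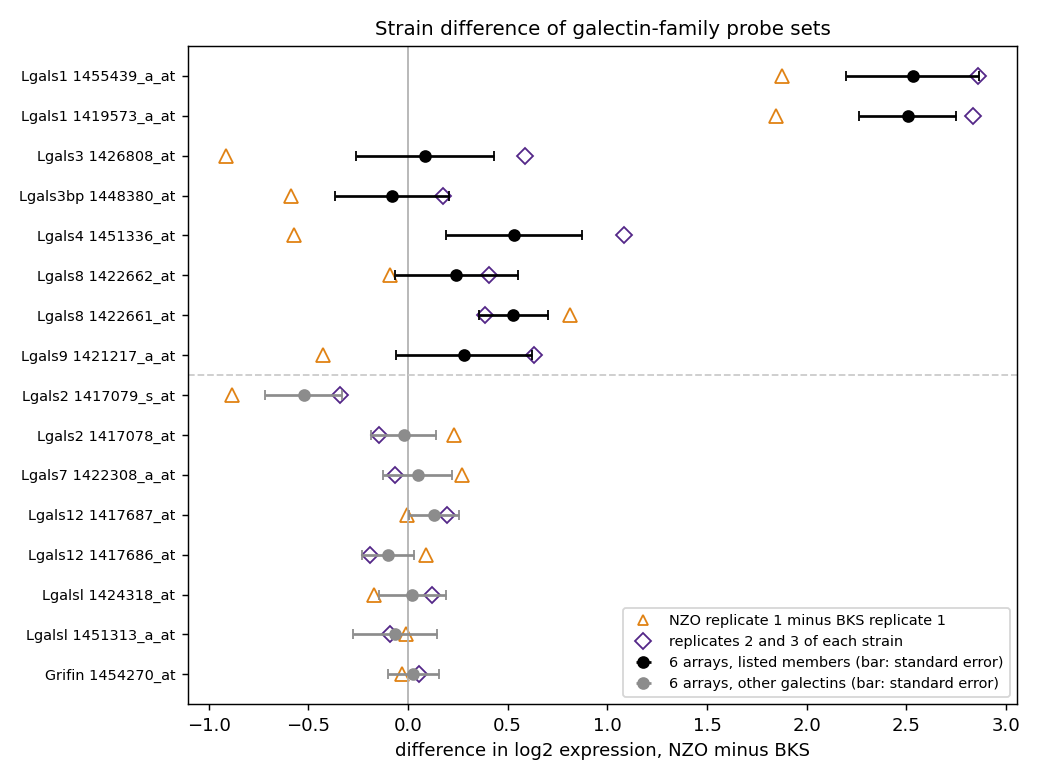
Difference in log2 expression, NZO minus BKS (horizontal axis), of the 8 member probe sets (black, above the dashed line) and 8 probe sets of other galectins (grey), with bars for the standard error. Open triangles give NZO replicate 1 minus BKS replicate 1 and open diamonds the difference among replicates 2 and 3. All 3 estimates of both Lgals1 probe sets lie between 1.85 and 2.86, and most others straddle 0.

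None of the remaining galectins on the array passed the test. Their 8 probe sets cover Lgals2, Lgals7, Lgals12, Lgalsl and the lens galectin-related protein Grifin, while Lgals6 is not analysed here. In the limma fit 0 of 8 passed. An unadjusted p under 0.05 was seen on 1 of them, as on 4532 of all 45037 probe sets. Their differences ran from -0.52 to 0.13 with a median of 0.00. The lowest was a shared-sequence probe set of Lgals2 (1417079_s_at), at 5.16, 5.09 and 5.08 in NZO and 6.04, 5.39 and 5.46 in BKS (adjusted p = 0.419, limma). Its second probe set gave -0.02 (adjusted p = 0.982, limma). Only 3 of these 8 probe sets had a mean of at least 6, namely both of Lgalsl and that of Grifin. The other 5 lay near or below the middle of all probe sets by mean, with 8.23% to 54.1% of probe sets below them.

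Galectin counter-receptors are the glycoproteins that galectins cross-link. Of 20 measured genes none passed in the gene-level limma fit, where 0.742% of 18193 genes did. There, 8 differences were above 0 and 12 below, with a median of -0.05 against -0.03 over all genes. For the 13 genes with a mean of at least 6 the median was -0.13, against -0.20 over all 9622 such genes. Of the 20, 2 had an unadjusted p under 0.05, as did 11.4% of all genes. Other settings gave lower calls. These were 1 of 13 genes with a mean of at least 6, where 84 of all 9622 such genes were called lower. They were also 1 with trend and robust variance, 2 with array weights, 2 with the number 1 arrays as a block and 1 without NZO replicate 2. Over all 18193 genes, lower calls in these 4 settings numbered 160, 899, 917 and 60. Those with an unadjusted p under 0.05 were the galectin-1 binding co-receptor Nrp1 and the insulin receptor Insr, which galectin-3 binds. Nrp1 read 8.56, 9.48 and 8.28 in NZO and 10.68, 10.45 and 10.06 in BKS (log2 difference -1.63, standard error 0.33, adjusted p = 0.0945, limma). Insr read 8.72, 9.60 and 9.30 in NZO and 9.70, 10.15 and 10.13 in BKS (log2 difference -0.79, standard error 0.26, adjusted p = 0.298, limma; -0.50 with repeated quantile normalization). In both genes every NZO array lay below every BKS array, as the strains did not overlap in 17.0% of all genes. The Tim-3 gene Havcr2 averaged 3.87 in NZO and 3.80 in BKS, near the bottom of the scale.

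Enzymes that build galectin ligands were also measured. Among 17 genes of N-glycan branching, poly-N-acetyllactosamine and core O-glycan synthesis none passed in limma. Of them, 4 had an unadjusted p under 0.05, as did 11.4% of all genes. Differences below 0 numbered 13 (median -0.25, and -0.04 with repeated quantile normalization), against 10027 of all 18193 genes. The 12 genes with a mean of at least 6 had a median of -0.30, against -0.20 over all 9622 such genes. Lower calls numbered 3 with array weights, 3 with the number 1 arrays as a block and 2 among replicates 2 and 3. Over all 18193 genes they numbered 899, 917 and 549 in the same order. The 2 genes of lowest p belong to O-glycan synthesis, not to N-glycan branching. The core 1 O-glycan synthase C1galt1 read 8.21, 8.34 and 8.28 in NZO and 8.76, 9.44 and 9.37 in BKS (log2 difference -0.91, standard error 0.21, adjusted p = 0.139, limma). Its chaperone C1galt1c1 gave -0.89 with a standard error of 0.25 (adjusted p = 0.220, limma), or -0.57 with repeated quantile normalization, again with all NZO arrays below all BKS arrays. Among 8 enzymes of sialylation, core fucosylation and bisection, which cap or reshape these ligands, none passed, 1 had an unadjusted p under 0.05, and the median was 0.03. The core fucosyltransferase Fut8 stood at 0.37 (adjusted p = 0.422, limma) and the sialyltransferase St3gal6 at 0.27 (adjusted p = 0.536, limma), both with the strains apart. St3gal6 was at 0.58 with repeated quantile normalization. Among 12 genes of autophagy of damaged vesicles, the pathway that galectins 3, 8 and 9 serve, none passed and 2 had an unadjusted p under 0.05. Of the 12, 9 were below 0 (median -0.32, and -0.01 with repeated quantile normalization). The 11 with a mean of at least 6 had a median of -0.33, beside -0.20 over all genes of that level. The kinase Tbk1 was at -0.82 (adjusted p = 0.272, limma) and the autophagosome protein Gabarapl1 at -1.10 (adjusted p = 0.431, limma). Without NZO replicate 1, Gabarapl1 was at -0.50. With the number 1 arrays as a block 1 of the 12 was called lower, as were 917 of all 18193 genes.

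Lgals9 and Lgals3bp are known as interferon-responsive genes, so their upstream sequences are shown beside the interferon-induced genes. The promoter table used here, from RefSeq on GRCm38.p6, matched 5 of the 6 members by symbol, all but Lgals1. The 250 bases before the gene start are given 5' to 3' on the gene's strand, with a match to the interferon-stimulated response element in capitals. They lie at chr11:78984925-78985174 on the minus strand for Lgals9 and at chr11:118401960-118402209 on the minus strand for Lgals3bp.
Lgals9: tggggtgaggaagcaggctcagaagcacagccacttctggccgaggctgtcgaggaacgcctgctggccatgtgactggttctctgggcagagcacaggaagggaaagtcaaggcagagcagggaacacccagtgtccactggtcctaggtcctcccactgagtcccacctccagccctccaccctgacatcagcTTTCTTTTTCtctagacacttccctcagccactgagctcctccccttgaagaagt
Lgals3bp: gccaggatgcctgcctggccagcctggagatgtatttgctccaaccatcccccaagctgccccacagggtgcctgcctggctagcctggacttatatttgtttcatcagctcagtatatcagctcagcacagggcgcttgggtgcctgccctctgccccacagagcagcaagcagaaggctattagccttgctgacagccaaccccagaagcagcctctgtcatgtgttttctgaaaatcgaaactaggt
The element was searched on both strands as GAAA, any 2 bases and GAAA again. Lgals9 held 1 match, 55 to 46 bases before the start, and the other 4 promoters of members held none, against 2.98% of 32851 windows of the same length. The interferon gamma-activated site, searched as TTCNNNGAA, a palindrome, had no match in any of the 5, against 7.02% of windows. A match of letters describes the sequence of the reference strain C57BL/6J and is not evidence of binding.

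Of 17 measured interferon-induced genes 1 was higher in NZO, as were 0.324% of all genes, and the other 16 did not pass. It was Mx1, an antiviral GTPase. Mx1 read 5.49, 5.36 and 5.21 in NZO and 4.40, 4.37 and 4.26 in BKS, close to or below the array medians on all 6 arrays (log2 difference 1.02, standard error 0.15, adjusted p = 0.0376, limma). It passed with NZO replicate 1 left out, and did not with any 1 of the other 5 arrays left out (adjusted p of 0.0860 to 0.220, limma). In the list as a whole 6 genes had an unadjusted p under 0.05, 2 higher and 4 lower. Over all 18193 genes 578 did as higher and 1500 as lower. In the list 13 differences were below 0 (median -0.30, against -0.03 over all genes, and -0.17 with repeated quantile normalization). The 14 genes with a mean of at least 6 had a median of -0.37, against -0.20 over all 9622 such genes. The poly-ADP-ribosyltransferase family gene Parp14 was at -0.93 (adjusted p = 0.142, limma) and the receptor transporter gene Rtp4 at -0.89 (adjusted p = 0.163, limma), both with all NZO arrays below all BKS arrays. Lower calls numbered 1 with cyclic loess, 2 with array weights, 3 with the number 1 arrays as a block and 2 among replicates 2 and 3. Over all 18193 genes they numbered 191, 899, 917 and 549 in the same order.

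Cell type markers were read beside Lgals1. For sinusoidal endothelial markers, all 10 differences were above 0, as were 8166 of all 18193 genes, with a median of 0.42. The strains did not overlap on 4 of the 10, as on 17.0% of all genes. None passed in limma, and 4 had an unadjusted p under 0.05, against 2078 of all 18193 genes. Their summed level, as log2 of the sum of linear signals, was 11.3 to 11.8 in NZO and 10.5 to 11.1 in BKS. The endocytic protein gene Ehd3 gave 1.44 (9.81, 9.63 and 9.66 in NZO, against 8.87, 8.03 and 7.86 in BKS, adjusted p = 0.0775, limma) and the junction protein gene Pecam1 0.71 (adjusted p = 0.132, limma). No marker of any of the 12 cell type lists reached the Lgals1 difference, the largest being Ehd3. Among replicates 2 and 3 of each strain 4 of the 10 passed, all higher, with a median of 0.75. The same number passed with array weights and with the number 1 arrays as a block, and 1 with repeated quantile normalization. Over all 18193 genes, higher calls numbered 363 among replicates 2 and 3 and 399 with array weights. They numbered 275 with the block and 212 with repeated quantile normalization. The part of endothelial signal in the Lgals1 values was not tested.

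Macrophage and stellate cell markers were less uniform. Among 12 Kupffer cell markers none passed and 7 were above 0. Of the 12, 1 had an unadjusted p under 0.05, as did 11.4% of all genes. The median was 0.03, and 0.31 with repeated quantile normalization, 0.35 with array weights and 0.58 among replicates 2 and 3. There, 5 passed as higher, as did 363 of all 18193 genes. Leaving out 1 array moved the list median between -0.11 and 0.30. The list had a summed level of 11.5 to 12.4 in NZO and 11.6 to 12.5 in BKS. Cd68, the marker of lowest p, was at 0.77 with overlapping strains (adjusted p = 0.403, limma), or 1.17 among replicates 2 and 3. Its means were 5.64 in NZO and 4.87 in BKS. Clec4f, which defines Kupffer cells, was at 0.02. The complement receptor gene Vsig4 was at 1.08 with overlapping strains (adjusted p = 0.480, limma), or 1.96 among replicates 2 and 3. The part of Kupffer cells in the galectin values was not tested. Among 8 markers of recruited and lipid-associated macrophages, 6 of them with a mean below 6, none passed, 1 had an unadjusted p under 0.05 and 6 were above 0 (median 0.17). Their summed level was 9.70 to 9.81 in NZO and 9.48 to 9.53 in BKS, and the part of such cells in the Lgals1 values was not tested. Atp6v0d2, a proton pump subunit, gave 0.94 (adjusted p = 0.274, limma), or 0.62 without NZO replicate 2. Cx3cr1, the other of the 2 with the lowest p, gave 0.29 on means of 4.74 in NZO and 4.45 in BKS (adjusted p = 0.577, limma). Trem2, the defining receptor, gave 0.10 on values from 5.21 to 5.63 (adjusted p = 0.891, limma).

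Of 13 stellate cell and matrix markers none passed, and 3 had an unadjusted p under 0.05, as did 11.4% of all genes. Differences above 0 numbered 8 (median 0.12, and 0.49 among replicates 2 and 3). Among replicates 2 and 3, 2 passed as higher, as did 363 of all 18193 genes. With array weights 1 was called lower, as were 899 of all 18193 genes. Leaving out 1 array moved the median between -0.06 and 0.31. The fibrillar collagen Col3a1 was at -1.17, with 6.80, 8.12 and 7.39 in NZO and 8.99, 8.43 and 8.41 in BKS (adjusted p = 0.240, limma), and at -0.66 among replicates 2 and 3. Lrat, the retinol-storing enzyme of quiescent stellate cells, was at 0.56 (adjusted p = 0.383, limma). Summed stellate signal was 10.9 to 11.7 in NZO and 11.01 to 11.9 in BKS. None of the 8 measured T and NK cell, 5 B cell or 5 neutrophil markers passed or had an unadjusted p under 0.05. The same held for the 7 bile duct, 4 adipocyte and 3 red cell markers. Medians of these lists ran from 0.04 for neutrophils to 0.18 for adipocytes. With repeated quantile normalization or cyclic loess 1 red cell marker was called higher, as were 212 and 218 of all 18193 genes. NZO replicate 1 stood apart in summed level. It was 10.2 for T and NK cell markers, against 8.76 to 9.04 on the other arrays. For bile duct markers it was 10.1 against 8.52 to 8.72, and for hepatocyte markers 16.05 against 16.94 to 17.10. The cause was not tested.

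**Figure D4:**
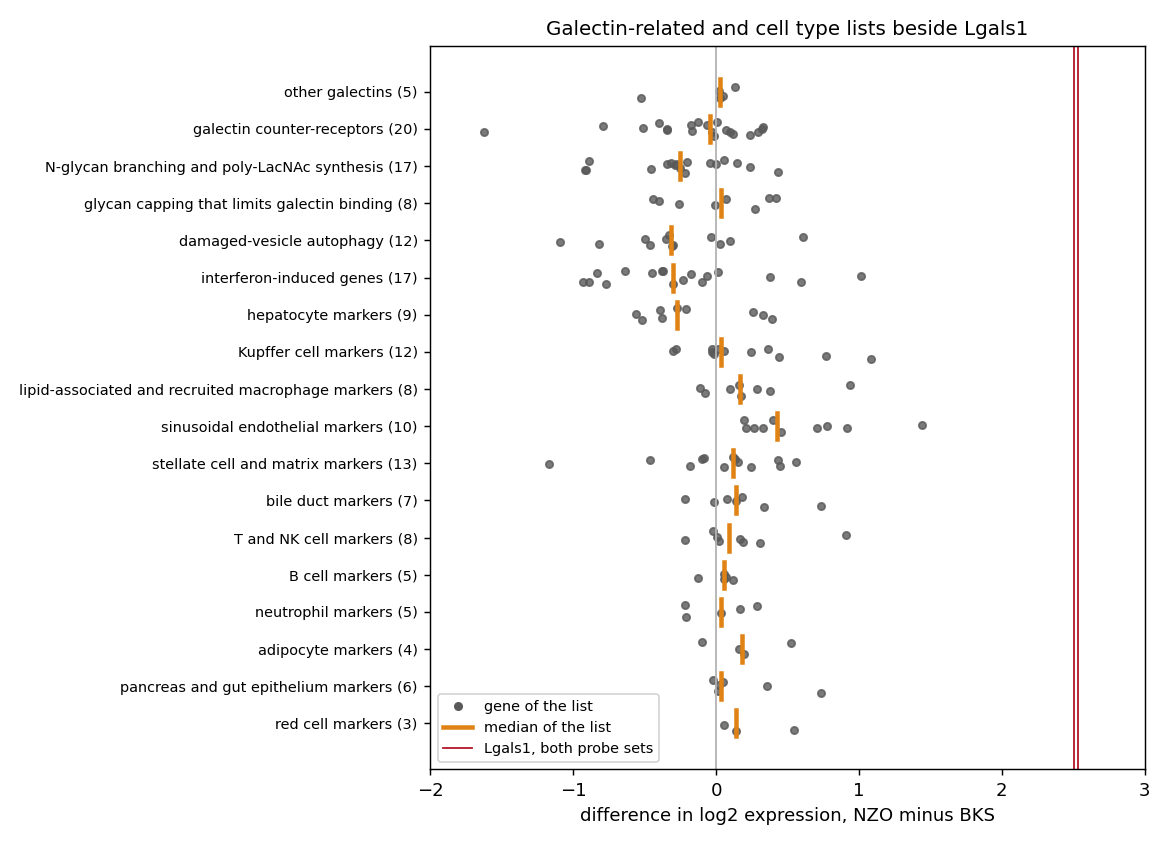
Difference in log2 expression, NZO minus BKS (horizontal axis), of every measured gene (grey points, spread vertically for legibility) in 18 lists, with the number of genes in brackets and the list median as an orange bar. The red lines mark the 2 Lgals1 probe sets at 2.51 and 2.53. All 10 sinusoidal endothelial markers lie right of 0, and no gene of any list reaches the red lines.

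No measured neighbour of Lgals1 passed the test. Lgals1 lies on mouse chromosome 15, and Lgals2 is the fourth measured gene before it. Of the 5 measured genes on each side none passed in limma, and 2 had an unadjusted p under 0.05, as did 11.4% of all genes. Differences ran from -0.52 for Lgals2 to 0.69 for Pdxp, a phosphatase of vitamin B6 metabolism. Pdxp read a mean of 5.49 in NZO and 4.80 in BKS (adjusted p = 0.318, limma). Around the other 5 members none of 10 neighbours each passed either, and between 0 and 2 of them had an unadjusted p under 0.05.

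**Figure D5:**
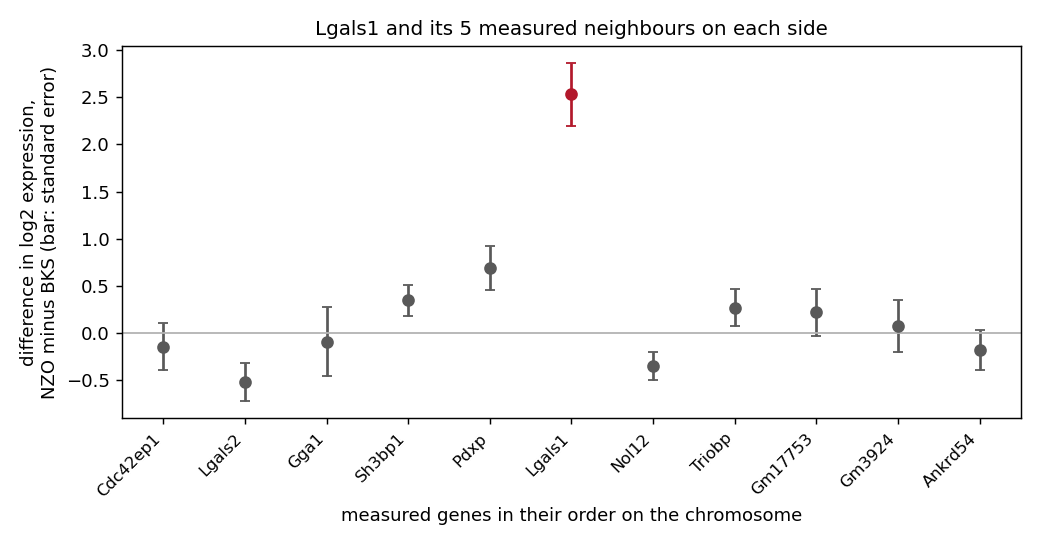
Difference in log2 expression, NZO minus BKS (vertical axis), of Lgals1 (red) and the 5 measured genes on each side of it in chromosome order (grey), with bars for the standard error. Lgals1 lies at 2.53 and its neighbours between -0.52 and 0.69.

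Profiles most like each member over the 6 arrays were found by the root-mean-square (RMS) difference between profiles centred on their own mean. Candidates were 9343 genes with a mean of at least 6, without predicted or clone symbols and without the member itself. For Lgals1 the nearest were Ly6d, a surface antigen of lymphoid precursors, the kinase Vrk2 and the nucleotide phosphohydrolase Hddc3. Their RMS differences were 0.26, 0.29 and 0.30. Ly6d read 6.88, 8.04 and 7.18 in NZO and 5.36, 4.71 and 5.33 in BKS. Vrk2 read 8.56, 9.34 and 8.84 in NZO and 6.78, 6.82 and 6.84 in BKS. Hddc3 read 6.93, 8.74 and 8.02 in NZO and 4.77, 4.92 and 5.14 in BKS. These genes had NZO replicate 2 highest and replicate 1 lowest among the NZO arrays, as Lgals1 did on both probe sets. They were picked for likeness to Lgals1 on the same arrays, so nothing is read from the shared order or strain difference.

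For the other members, as for Lgals1, likeness of profile itself fixes a strain difference close to the member's own. The nearest profile to Lgals3 was that of the noncoding RNA Firre (0.08), with the apoptotic cell receptor Mertk, itself a galectin-3 binding protein, at 0.11. To Lgals3bp it was the transcription factor Zbtb7b (0.04), to Lgals4 the fatty acid elongation enzyme Hsd17b12 (0.09), to Lgals8 the cell division protein Cdc20 (0.04) and to Lgals9 the RNA-binding protein Hnrnpl (0.05). Strain differences of these 6 genes ran from -0.11 for Zbtb7b to 0.43 for Hsd17b12. With 6 arrays and 9343 candidates, close profiles are a description only.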

How the data were processed

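Liver RNA of 6 samples from male mice was hybridised to 1 array each. The deposited log2 values per probe set are the authors' RMA output. The submitters' processing notes name RMA and Affymetrix Expression Console. Versions, and whether other arrays were normalized with these 6, are not given in the sources used here. Values carry no detection call, and the number of arrays limits the precision. Samples were grouped by strain label, and replicate numbers follow accession order. Where a replicate is not a separate mouse, p-values measure only the spread between these samples.

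Of 45101 probe sets, 64 controls were left out. Names came from the platform annotation, updated through RefSeq gene IDs (34945 probe sets with 1 symbol, 932 with several and 9160 with none). A gene is its probe set with the highest mean (18193 genes). Tests of NZO minus BKS used lmFit and eBayes of limma 3.58.1 (R 4.3.3), two-sided with Benjamini-Hochberg adjustment, over 45037 probe sets for the galectins and over all genes for 18 lists (188 entries, 169 measured). The fit was also run on simulated data with independent noise per gene and no array-wide shift. That run does not bear on array effects.

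The members and lists were chosen with earlier results of these data known, and the neighbours and motifs after values were seen. Named from a list are its called genes (at most 4, by size of change), or the 2 of lowest p in a list without calls. Parp14, Rtp4, Havcr2 and defining markers were added after their values were seen. Lists given only as counts, means, medians or summed levels name no gene. Alternatives changed normalization, a filter on dim probe sets, the variance model, array weights, the probe set of a gene and the arrays included, with the arrays titled number 1 left out or taken as a block, although no label names a batch. Figures used matplotlib 3.10.9 in Python 3.11.15.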

Additional observations from a re-analysis of the deposited data

How the results depend on the processing

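The 191 probe sets past the test became 604 with repeated quantile normalization, 584 with cyclic loess, 373 with trend and robust variance, 829 with array weights, 1336 with the arrays titled number 1 as a block, which no label calls a batch, and 1192 among 2 against 2 arrays, and 26 to 272 with 1 array left out. The 135 genes became 422, 409, 281, 1298, 1192 and 912 in the same order, 223 with the probe set of largest spread, and 27 to 258 with 1 array left out. Of 167 different list genes, the 1 past the test became 3, 4, 4, 14, 14 and 17 in that order, 2 with only genes of a mean of at least 6, 2 with the probe set of largest spread, and 0 to 2 with 1 array left out. The cause was not tested. The 2 galectin probe sets, both of Lgals1, passed in every alternative run on all 6 arrays, and 3 passed among 2 against 2 arrays, where Lgals4 joined them. With 1 array left out 0 to 2 passed. Among 2 against 2 arrays 5 of 12 Kupffer cell markers, 4 of 10 endothelial markers and 2 of 13 stellate cell markers were higher. Their list medians were 0.58, 0.75 and 0.49. In that comparison 363 of all 18193 genes were called higher. With the number 1 arrays as a block the 14 calls were 5 higher, 4 of them endothelial, and 9 lower. Among the lower were 3 glycan synthesis genes, 3 interferon-induced genes, 2 counter-receptors and 1 vesicle autophagy gene. Over all 18193 genes this block setting called 275 higher and 917 lower. Of 549 recomputed differences of galectin probe sets and named genes, 535 moved by less than 1 SD and 14 moved further. Most came from fits with 1 array left out, which moves a strain mean of 3 arrays by less than that strain's SD. The count of 535 is therefore no measure of stability. No called difference changed sign, while uncalled ones did, as for Lgals3 and Lgals3bp. No paired analysis was possible because the strains share only number 1 in the sample titles. Dim probe sets, most other galectins among them, limit what these arrays can show.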
